A study of Mus musculus with 9 samples.

Results

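The Gstm-high tumour-like cells described here are 686 of 3432 tumour-like cells from 1 ascites library, the 20% of those cells with the largest share of their unique molecular identifiers (UMIs, tags that each count 1 RNA molecule) on Gstm1 and Gstm2. The cells were chosen by measured values. A candidate barcode carried 500 UMIs or more in 200 genes or more, and mitochondrially encoded genes held no more than 15% of its UMIs. It also needed at least 3 UMIs summed over Krt8, Krt18, Krt19, Wt1 and Upk3b, at most 1 UMI over the 3 C1q genes, and fewer than 3 UMIs over the mitosis genes Top2a, Birc5, Prc1, Cenpf and Cenpa. Of 6442 barcodes that passed the cell filter, 3432 met these conditions. They were ordered by the Gstm1 plus Gstm2 share and set in 5 groups of equal size, and the 686 Gstm-high cells were compared with the 686 cells of smallest share, called Gstm-low cells.

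The cells came from the peritoneal fluid of a mouse model of metastatic ovarian cancer, labelled B6_WT for genotype, which bore ID8-Def29/Vegf cells. These are a mouse ovarian surface epithelial tumour line engineered to carry a beta-defensin and a vascular endothelial growth factor. The number of mice behind the library, their age and any treatment are not given in the labels, and the Gstm-high and Gstm-low cells share all of these, since both come from the same library. The series also holds 8 bulk libraries of the cultured line, given vehicle or the iron chelator deferiprone, which are not analysed here.

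Glutathione S-transferases join the tripeptide glutathione to reactive compounds, such as products of lipid peroxidation, so that they can be removed from the cell. The Mu class, to which Gstm1, Gstm2 and Gstm6 belong, is encoded by a cluster of closely related genes, and many transferase genes are known targets of NRF2, a transcription factor that binds antioxidant response elements when cells meet oxidants or electrophiles. Chchd10 and Kctd14 were taken as further markers of these cells, with earlier results of the same data known. Chchd10 encodes a small protein of the mitochondrial intermembrane space.

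Gstm1 lies at chr3:108012255-108017973, Gstm2 at chr3:107981702-107986453 and Gstm6 at chr3:107938847-107943749, all on the minus strand (GRCm38, GENCODE release M21). The promoters of these 3 genes and of Me1, an NADPH-forming enzyme of the NRF2 regulon that was among the leading genes, are shown because the first 3 are Mu class genes that chose the cells or led the comparison, and Me1 led its list. The windows run from 250 bases before to 50 bases after the gene start (RefSeq, GRCm38.p6), 5′ to 3′ on the gene's strand. Capitals mark a match to the core of the antioxidant response element, TGACNNNGC, searched on both strands.
Gstm1 promoter, chr3:108017924-108018223, minus strand: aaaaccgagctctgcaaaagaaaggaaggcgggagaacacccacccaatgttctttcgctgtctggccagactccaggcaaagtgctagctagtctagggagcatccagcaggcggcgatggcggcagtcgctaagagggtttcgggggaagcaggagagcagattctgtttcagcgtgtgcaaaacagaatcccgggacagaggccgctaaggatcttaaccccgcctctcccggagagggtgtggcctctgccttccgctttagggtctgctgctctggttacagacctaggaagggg
Gstm2 promoter, chr3:107986371-107986670, minus strand: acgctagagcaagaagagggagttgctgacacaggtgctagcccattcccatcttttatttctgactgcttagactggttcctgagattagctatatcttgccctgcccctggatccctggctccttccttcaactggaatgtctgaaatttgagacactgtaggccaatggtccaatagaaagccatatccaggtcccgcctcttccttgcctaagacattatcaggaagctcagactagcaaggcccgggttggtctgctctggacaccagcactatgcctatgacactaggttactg
Gstm6 promoter, chr3:107943685-107943984, minus strand: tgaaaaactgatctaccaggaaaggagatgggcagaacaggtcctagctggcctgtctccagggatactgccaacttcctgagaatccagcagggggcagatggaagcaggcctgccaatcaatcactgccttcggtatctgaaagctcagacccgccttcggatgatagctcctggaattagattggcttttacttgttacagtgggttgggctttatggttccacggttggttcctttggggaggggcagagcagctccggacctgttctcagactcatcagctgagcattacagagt
Me1 promoter, chr9:86695865-86696164, minus strand: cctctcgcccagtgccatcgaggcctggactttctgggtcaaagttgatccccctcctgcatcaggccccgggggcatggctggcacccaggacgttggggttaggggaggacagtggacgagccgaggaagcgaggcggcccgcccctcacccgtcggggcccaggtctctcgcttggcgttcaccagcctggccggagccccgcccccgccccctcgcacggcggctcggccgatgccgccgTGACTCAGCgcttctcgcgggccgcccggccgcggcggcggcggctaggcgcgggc
The Me1 window held 1 match, which overlaps the AP-1 motif TGANTCA, while the second Me1 window in the RefSeq table held none, and neither the windows shown for Gstm1, Gstm2 and Gstm6 nor the further ones of Gstm1 and Gstm6 held it. Among the 15 leading higher genes, 9 had a promoter in the table and 3 of those, Me1, Ahsg and Kazald1, held the core. A gene with several windows was counted as holding a motif if any of them did. Counted so, the core was in 46 of 244 promoters (18.9%) of genes higher in Gstm-high cells, in 20 of 81 (24.7%) of genes lower in them, and in 276 of 1509 (18.3%) of the genes compared. Of all 27025 genes in the table, 14.0% had it. The AP-1 motif was in 7.38% of the promoters of higher genes, 11.1% of those of lower genes and 6.56% of those of the genes compared, against 8.97% of all genes in the table. The share among higher genes was thus near that of the genes compared and below that of lower genes.

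The values that chose the cells were a continuous range rather than a separate peak, as the histogram of the Gstm1 plus Gstm2 share shows. Gstm-high cells had between 118 and 306 Gstm UMIs per 10000 UMIs, with a median of 148. Gstm-low cells had between 0 and 19.5, with a median of 11.3, and 34 of them had no Gstm UMI. Across the 5 groups from lowest to highest the median share was 11.3, 29.7, 57.4, 93.9 and 148 per 10000. The last cell inside the Gstm-high group had 73 Gstm UMIs of 6187 and the first outside it 64 of 5425. At the lower edge, the last Gstm-low cell had 3 of 1542 and the first outside had 7 of 3595. Summed over cells, Gstm1 stood at 10928 CPM (the group's UMIs of the gene per 1000000 UMIs) in Gstm-high cells and 800 CPM in Gstm-low cells, and Gstm2 at 4406 CPM in Gstm-high and 325 CPM in Gstm-low cells. These levels are a description of the selection.

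**Figure D1:**
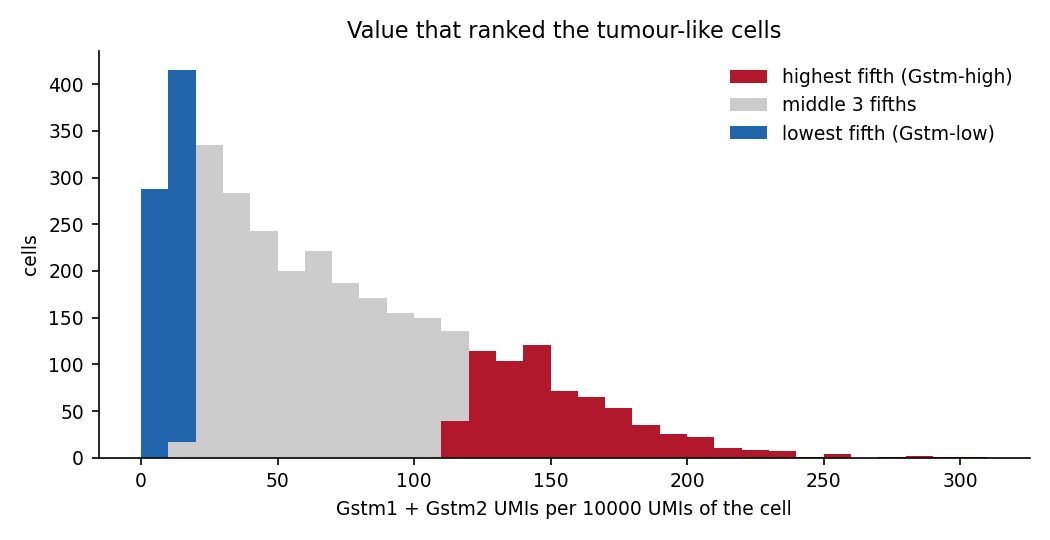
Number of tumour-like cells (y axis) by Gstm1 plus Gstm2 UMIs per 10000 UMIs of the cell (x axis, bins of 10), stacked by group. Gstm-high cells, 118 to 306 per 10000, form the right tail of 1 skewed distribution and Gstm-low cells, 0 to 19.5, its left end.

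Depth was near equal between the groups. Gstm-high cells had a median of 5023 UMIs and 1623 genes, against 4739.5 UMIs and 1415 genes in Gstm-low cells, and the summed totals were 3557294 UMIs in Gstm-high and 3530440 in Gstm-low cells. The median mitochondrial share was 3.91% in Gstm-high cells and 2.91% in Gstm-low cells, and it was larger at each step between them. Scrublet marked 2 Gstm-high and 8 Gstm-low cells as doublets. One difference of makeup bears on the comparison. Cells with 2 or more UMIs over Col1a1, Col1a2, Mgp, Krt7 and Msln, genes of host mesothelial or fibroblast-like cells, numbered 0 of 686 Gstm-high cells, which allows a share of up to 0.437%, and 116 of 686 Gstm-low cells (16.9%, exact 95% interval 14.2 to 19.9%). Across the 5 groups from lowest to highest they were 16.9%, 4.80%, 2.91%, 0.583% and 0%. Values without them, with the ranking repeated, are given beside the results in which these genes or cells weigh most.

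The epithelial and mesothelial markers that the selection did not use were low throughout. Of these 8 markers none reached 50 CPM over all candidate cells, and their summed level was 73.9 CPM in Gstm-high and 271 CPM in Gstm-low cells. Krt7, a keratin, had 1.12 CPM in Gstm-high and 75.6 CPM in Gstm-low cells, and Cdh1, which encodes E-cadherin, had no UMI in either. Krt7 and Msln of this list also define the host-like cells, and without those cells the sum was 74.5 CPM in Gstm-high and 185 CPM in Gstm-low cells, and Krt7 1.19 CPM in Gstm-high and 29.3 CPM in Gstm-low cells. Pax8, a marker of fallopian tube epithelium, also had none. Gata4 and Gata6, transcription factors of the ovarian surface and mesothelium, were present at 59.6 and 188 CPM in Gstm-high cells, against 51.6 and 215 CPM in Gstm-low cells. Amhr2, the receptor of anti-Müllerian hormone, stood at 842 CPM in Gstm-high and 375 CPM in Gstm-low cells, a ratio of 2.24 (95% interval 2.10 to 2.39), and at 29.9 CPM in macrophage-like cells. Of the 24 identity genes listed, 3 passed 50 CPM, and of those Amhr2 was past 1.5-fold and Gata4 and Gata6 were not. Counted with no floor, 11 of the 24 were at least 1.5-fold lower in Gstm-high cells with an interval away from 1. By the same rule 2, Amhr2 and Lrrn4, were higher, so more of the list ran against Amhr2 than with it. Of all 14553 genes compared with no floor, 3782 were higher and 3230 lower, counted without the interval condition. Of the 11, Krt7 was lowest at 0.0149, and Upk1b, a uroplakin, had 18.8 CPM in Gstm-high and 79.0 CPM in Gstm-low cells. Cldn3, a claudin of tight junctions, had 5.06 CPM in Gstm-high and 31.2 CPM in Gstm-low cells. All 11 were also at least 1.5-fold lower without host-like cells.

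Markers of immune cells stood far below their level in macrophage-like cells. The 9 macrophage markers summed to 109 CPM in Gstm-high and 169 CPM in Gstm-low cells, against 30302 CPM in 1076 macrophage-like cells of the same library, and Adgre1, which encodes F4/80, had no UMI in Gstm-high cells. The 5 dendritic cell markers summed to 668 CPM in Gstm-high and 578 CPM in Gstm-low cells, with Flt3 and Ccr7 at 0 in Gstm-high cells. B cell, T or natural killer cell, neutrophil and endothelial markers each summed to 3.09 CPM or less in Gstm-high cells and to 5.10 CPM or less in Gstm-low cells. The 7 fibroblast markers summed to 254 CPM in Gstm-high and 639 CPM in Gstm-low cells. Nearly all of that in Gstm-high cells was decorin, Dcn, at 251 CPM, and Col1a2 and Lum had no UMI there. Without host-like cells, which 3 of these genes define, the fibroblast sum was 253 CPM in Gstm-high and 470 CPM in Gstm-low cells. The part of other cell types in the results was not tested.

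Among 1968 genes with at least 50 CPM over all candidate cells, the 15 selection genes left out, 313 genes (15.9%) were at least 1.5-fold higher in Gstm-high than in Gstm-low cells and 122 (6.2%) at least 1.5-fold lower. With 1 library no test was possible, and since the groups were cut on a measured value, these counts describe the contrast and support no test. The exact 95% intervals of the ratios, which cover counting error only, lay away from 1 for all 435 genes. At this depth and a floor of 50 CPM a 1.5-fold ratio will nearly always have such an interval. It is thus no separate check. The median ratio of all genes compared was 1.10. Of the 313 higher genes, 248 were larger at each of the 5 groups in order, and of the 122 lower genes, 89 were smaller at each. Of all 1968 genes, 413 were larger at each and 209 (10.6%) smaller, and a gene with a large ratio between the end groups is more apt to be among them. Higher genes made up 72.0% of the 435, and 60.2% when CPM was taken without mitochondrially encoded and ribosomal protein genes, with 237 higher and 157 lower. Without the host-like cells 310 genes were higher and 107 lower, of which 293 and 105 were the same genes.

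Among the 15 genes with the highest ratios were the beta-defensins Defb19 and Defb36, the transferases Gstm6 and Gsta4, the cystatin Cst12, the sodium pump subunit Atp1b2, the insulin gene Ins2 and Ahsg, which encodes fetuin-A. All 15 leading higher genes stood at 4.75 times their Gstm-low level or more, as the plot of ratios for the leading genes shows. The 6 lowest ratios were those of Slpi, Mt2, Fn1, the paired collagen IV genes and the efflux pump gene Abcb1b. The other leading higher genes were the noncoding RNA genes Gm26532 and Gm37350, Efhd1, which encodes a calcium-binding mitochondrial protein, the Cdc42 effector gene Cdc42ep5 and Kazald1, which encodes a secreted protein with a Kazal domain. Their ratios ran between 6.12 at Kazald1 and 13.8 at Gm26532. The other leading lower genes were Nrgn, Uchl1, a ubiquitin hydrolase, Csrp1, Gng13, Smpd3, a neutral sphingomyelinase, Tnni1, a troponin of slow muscle, and Tcea3, with ratios between 0.147 at Nrgn and 0.293 at Tcea3. Efhd1, Me1, Fn1, Col4a1, Col4a2, Abcb1b, Uchl1, Gng13, Smpd3, Lgals2 and Chchd10 overlap a gene on the other strand, and Smpd3 also one on its own. Whether counting used the strand is not given in the sources used here, so these values may hold reads of the overlapping genes.

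**Figure D2:**
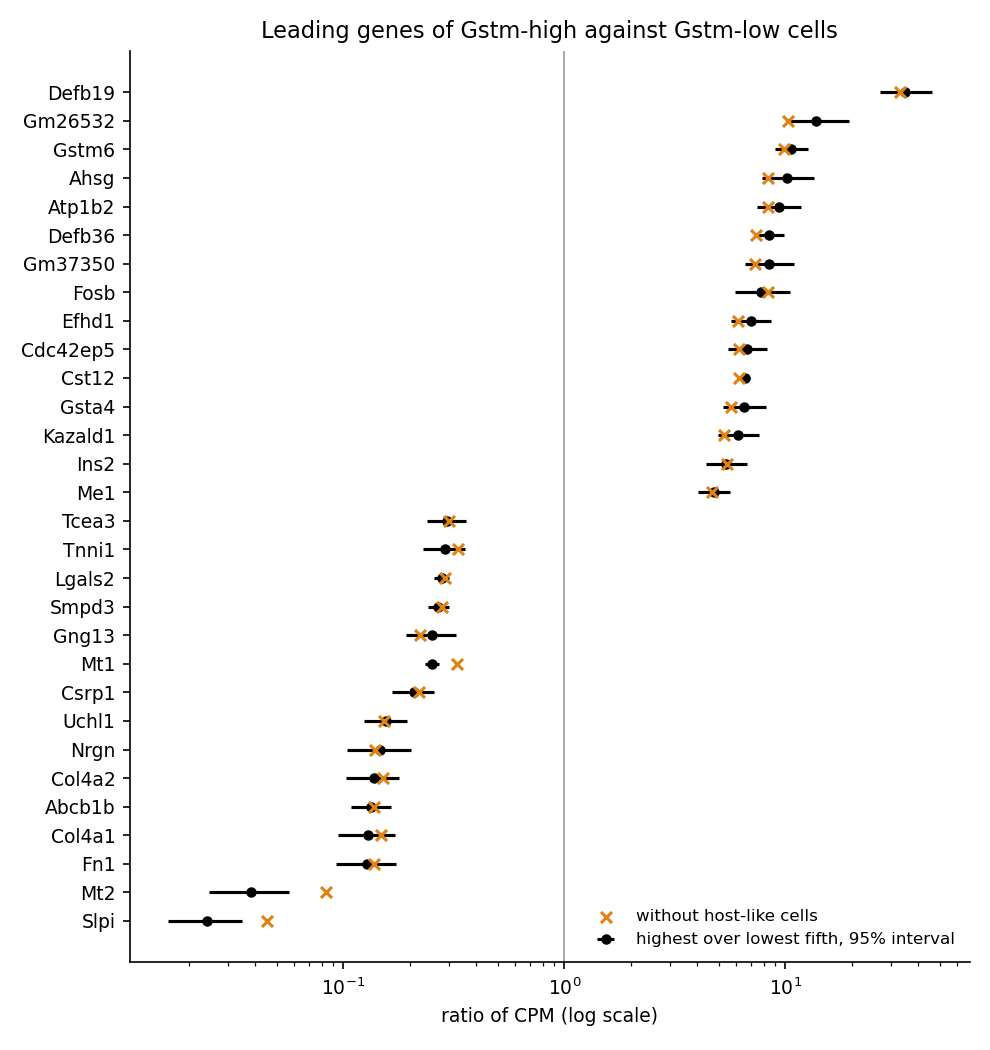
Ratio of CPM, Gstm-high over Gstm-low cells (x axis, log scale), for the 15 highest and 15 lowest genes (y axis). Black points are the ratios with exact 95% intervals and orange crosses the ratios without host-like cells; Defb19 at 34.7 is the highest, Slpi at 0.0241 the lowest, and the crosses move furthest for Slpi and Mt2.

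Beta-defensins are small cationic antimicrobial peptides, and many of the mouse genes are best known from the epithelium of the male reproductive tract. Defb19, at chr2:152576086-152580312 on the minus strand, had 570 CPM in Gstm-high and 16.4 CPM in Gstm-low cells, a ratio of 34.7 (95% interval 26.7 to 45.9). Its level over the 5 groups from lowest to highest was 16.4, 43.7, 108, 298 and 570 CPM. The Gstm-low level was about that of macrophage-like cells, 16.3 CPM, so it cannot be told from free RNA. With every cell thinned to 1000 UMIs, 29.3% of 680 Gstm-high cells and 1.19% of 670 Gstm-low cells had a Defb19 UMI, against 1.47% of 950 macrophage-like cells. Unthinned, the shares were 59.9% in Gstm-high and 6.12% in Gstm-low cells.

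Defb36, at chr2:152604327-152612729 on the plus strand and so beside Defb19, had 446 CPM in Gstm-high and 53 CPM in Gstm-low cells, a ratio of 8.43 (7.24 to 9.86). After thinning, 24.7% of Gstm-high cells and 4.18% of Gstm-low cells had a UMI, against 2.63% of macrophage-like cells. The 2 genes were not found in all Gstm-high cells. Of the 680 thinned cells, 84 had both, 115 had Defb19 only, 84 had Defb36 only and 397 had neither. Defb36 was found in 42.2% of the cells with Defb19 and in 17.5% of those without it. The 34 Gstm-high cells with most Defb19 UMIs held 39.7% of all Defb19 UMIs, so the level was uneven within the group. Defb29, the beta-defensin that the name of the line refers to, had no UMI in either group.

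Cst12, an inhibitor-like protein of the cystatin family at chr2:148789361-148793546, was the most abundant of the leading genes. It had 3258 CPM in Gstm-high and 495 CPM in Gstm-low cells, a ratio of 6.58 (6.26 to 6.93), and 495, 857, 1315, 2055 and 3258 CPM over the 5 groups from lowest to highest. Unlike Defb19 it was spread over nearly all Gstm-high cells. After thinning 86.5% of Gstm-high, 35.4% of Gstm-low and 16.2% of macrophage-like cells had a UMI. In single cells the median was 27.8 Cst12 UMIs per 10000 in Gstm-high and 3.41 in Gstm-low cells, and 96.1% of Gstm-high cells lay above the Gstm-low median.

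The 2 markers named with the Gstm genes were chosen with earlier results of these data known, so their levels are a description. Chchd10 had 4009 CPM in Gstm-high and 1344 CPM in Gstm-low cells, a ratio of 2.98 (2.89 to 3.08), with 1344, 1657, 2197, 2941 and 4009 CPM from lowest to highest group. Kctd14, whose product belongs to a family of adaptor proteins of ubiquitin ligases, had 717 CPM in Gstm-high and 207 CPM in Gstm-low cells, a ratio of 3.46 (3.19 to 3.76). A Chchd10 UMI was found in 95% of thinned Gstm-high cells, 70.9% of Gstm-low cells and 19.8% of macrophage-like cells. The single-cell median of Chchd10 was 39.4 per 10000 UMIs in Gstm-high and 12.0 in Gstm-low cells, and 83.8% of Gstm-high cells lay above the 90th percentile of Gstm-low cells. The 10th to 90th percentiles ran from 19.1 to 61.9 per 10000 in Gstm-high and from 3.61 to 24.0 in Gstm-low cells. The single-cell levels of Chchd10 thus overlapped in part, and both groups expressed it.

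**Figure D3:**
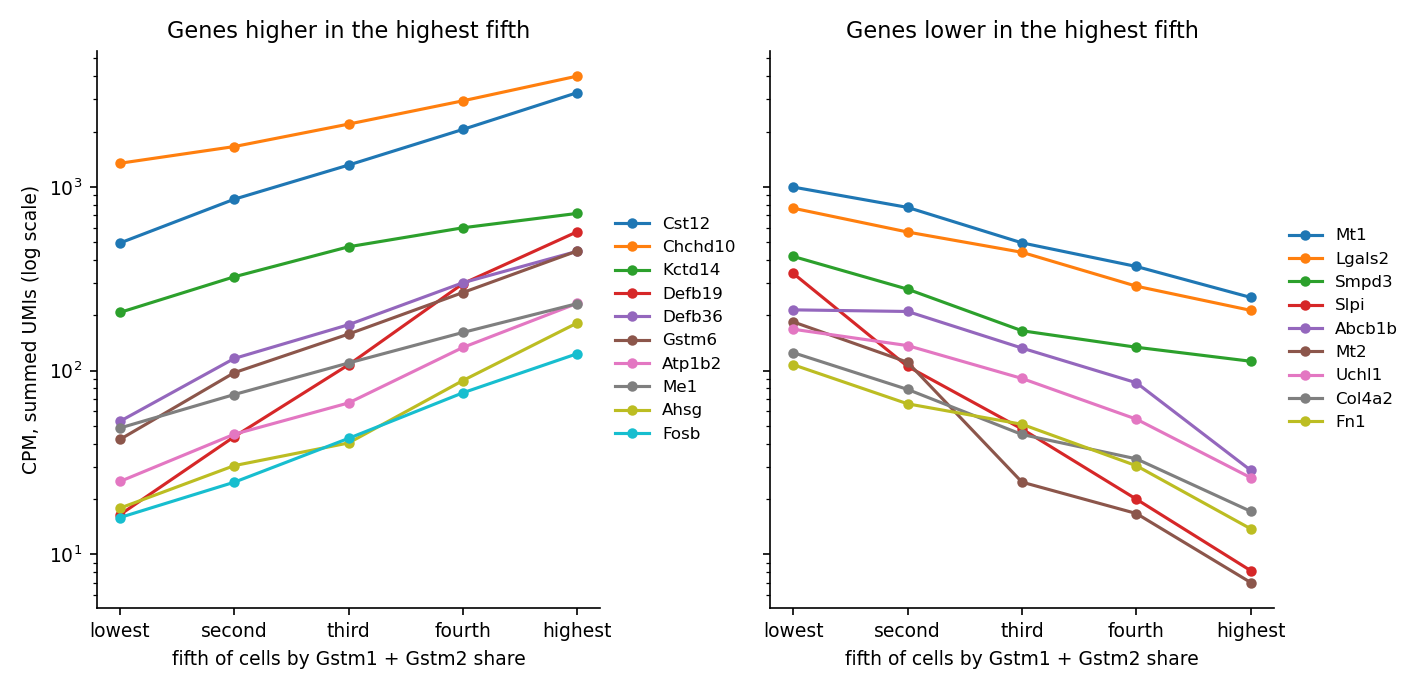
Summed level in CPM (y axis, log scale) in the 5 groups of cells ordered by Gstm1 plus Gstm2 share (x axis, lowest to highest), for 10 higher genes on the left and 9 lower genes on the right. Every line shown moves the same way at each step; Defb19 runs over the widest range on the left, to 570 CPM in the highest group, and Slpi on the right, to 8.15 CPM.

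Of the other glutathione transferase genes, 21 of 22 listed were in the matrix, 6 passed 50 CPM and 4 of those 6 were at least 1.5-fold higher in Gstm-high cells, with none lower (median ratio 1.74, against 1.10 over all genes). The shares among all genes compared were 15.9% higher and 6.2% lower. Gstm6 had 448 CPM in Gstm-high and 42.2 CPM in Gstm-low cells, a ratio of 10.6 (8.97 to 12.6), and after thinning was found in 30.7% of Gstm-high, 3.73% of Gstm-low and 1.37% of macrophage-like cells. Gsta4, whose enzyme acts on the lipid peroxidation product 4-hydroxynonenal, had 172 CPM in Gstm-high and 26.3 CPM in Gstm-low cells, a ratio of 6.53 (5.24 to 8.21). Mgst1, the microsomal transferase, was the most abundant at 1373 CPM in Gstm-high and 791 CPM in Gstm-low cells (ratio 1.74), and Gstm5 had the same ratio at 66.9 CPM in Gstm-high and 38.5 CPM in Gstm-low cells. Gstp1, the Pi class gene, did not share this, with 132 CPM in Gstm-high and 133 CPM in Gstm-low cells, nor did Mgst3 reach 1.5-fold, at a ratio of 1.37. Below the floor of 50 CPM over all candidate cells, Gstm7 had 92.2 CPM in Gstm-high and 8.50 CPM in Gstm-low cells. Under the same floor, Gstt1 (ratio 2.03) and Gstm3 (10 UMIs in Gstm-high and 0 in Gstm-low cells) were also higher. Others under it were lower in Gstm-high cells, Mgst2 at 0.513 (0.350 to 0.744) and Gstk1 at 0.354 (0.154 to 0.752). Gstt2 had 0 UMIs in Gstm-high and 8 in Gstm-low cells. The Mu class genes resemble each other closely, and how reads shared between them were counted is not given in the sources used here. The values of Gstm3, Gstm5, Gstm6 and Gstm7 are thus uncertain to the extent that Gstm1 or Gstm2 reads were assigned to them. The same holds for the count of 4 of 6 and the median of 1.74, which include Gstm5 and Gstm6. Outside the Mu class, Gsta4 and Mgst1 were past 1.5-fold, and Gstp1 and Mgst3 were not.

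Of 33 NRF2 regulon and antioxidant genes listed, 19 passed 50 CPM, and 9 of the 19 (47.4%, against 15.9% of all genes) were at least 1.5-fold higher in Gstm-high cells and none lower (median ratio 1.37). Me1 had 232 CPM in Gstm-high and 48.7 CPM in Gstm-low cells, a ratio of 4.75 (4.03 to 5.64). Akr1b8 and Akr1b3, aldo-keto reductases of the aldose reductase family, had 307 and 330 CPM in Gstm-high cells, against 75.1 and 101 CPM in Gstm-low cells, ratios of 4.09 and 3.26. Taldo1, of the pentose phosphate pathway, had a ratio of 2.10 and Prdx2, a peroxiredoxin, 1.82. Tkt, Prdx3, Blvrb and Sod1 lay between 1.61 and 1.70, and the first 3 of these were under 1.5-fold, at 1.43 to 1.45, when each cell was thinned to 1000 UMIs. Nfe2l2, which encodes NRF2, had 119 CPM in Gstm-high and 129 CPM in Gstm-low cells, and Prdx5 was below 1 at 0.728.

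Of 20 listed genes of glutathione supply and use other than the transferases, 8 passed 50 CPM and none of the 8 was past 1.5-fold in either direction (median ratio 1.02). Of all genes compared, 15.9% were higher and 6.2% lower. No enzyme that makes glutathione was among the 8, which were peroxidases, glutaredoxins, Glo1, Prdx6 and the transporter subunit Slc3a2. Their ratios ran to 1.36 at Prdx6 and 0.801 at Gpx1, and Gpx4, the lipid peroxidase that guards against ferroptosis, had 1245 CPM in Gstm-high and 1146 CPM in Gstm-low cells. Of 9 ferroptosis and lipid peroxidation genes past the floor, Cp, which encodes ceruloplasmin, was lower at 46.4 CPM in Gstm-high and 83.0 CPM in Gstm-low cells (ratio 0.559, and 0.684 with thinned cells), and the other 8 were between. The iron genes were likewise mostly between, with Fth1 at 6060 CPM in Gstm-high and 7375 CPM in Gstm-low cells and Ftl1 at 3119 CPM in Gstm-high and 2517 CPM in Gstm-low cells. The medians of the glutathione and ferroptosis lists, 1.02 and 1.01, lay below the 1.10 of all genes. Aldh1a1 and Aldh2, aldehyde dehydrogenases, were higher at ratios of 2.33 and 2.02.

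**Figure D4:**
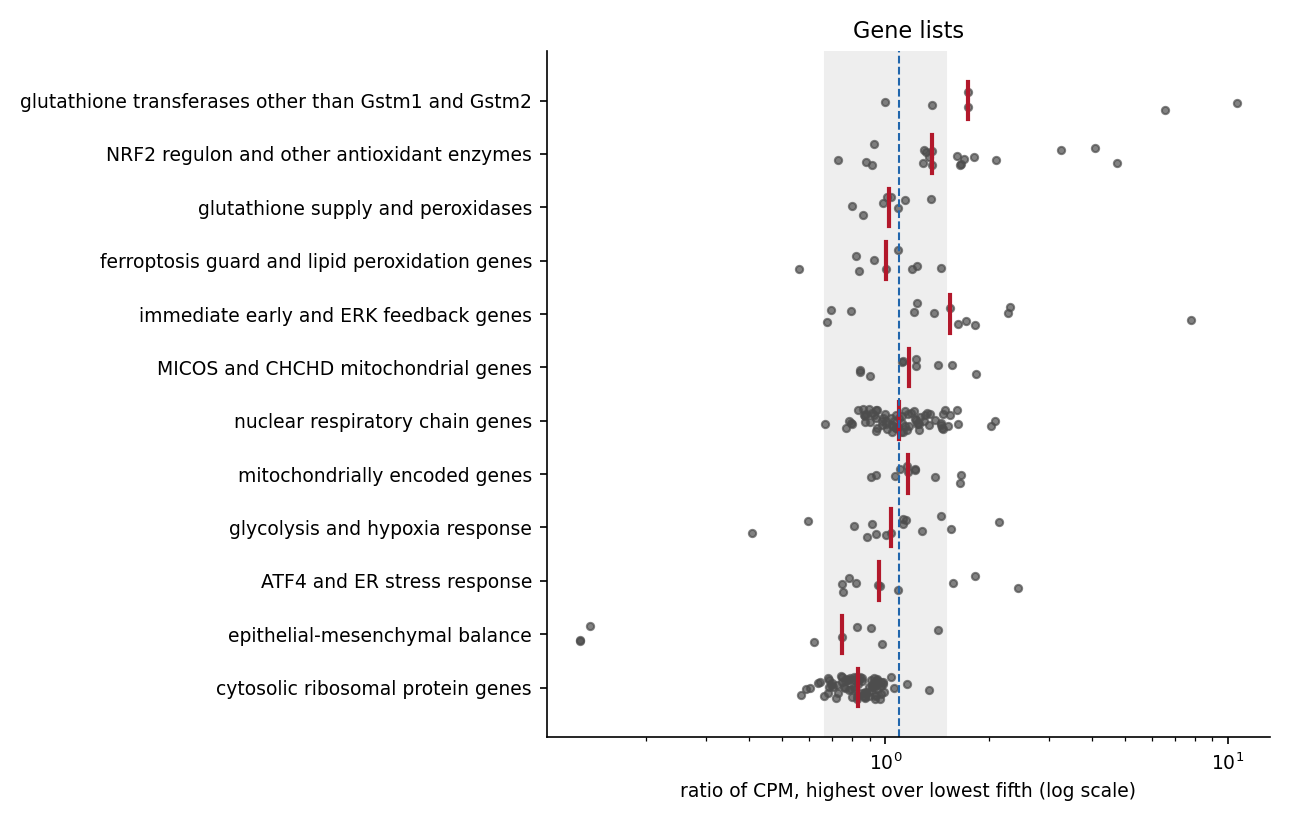
Ratio of CPM, Gstm-high over Gstm-low cells (x axis, log scale), for the members of 12 gene lists that passed 50 CPM. Each grey point is a gene and the red bar the list's median. The dashed blue line is the median of all 1968 genes (1.10) and the shaded band the ratios under 1.5-fold. The transferases (median 1.74, Gstm5 and Gstm6 included) and the immediate early and ERK feedback genes (1.55) have the highest medians shown.

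Mitochondrial genes other than Chchd10 were higher only in part. Chchd2, the close relative of Chchd10, had 3269 CPM in Gstm-high and 1777 CPM in Gstm-low cells, a ratio of 1.84 (1.78 to 1.90), and of 10 genes of this list past the floor Chchd2 and Samm50 were past 1.5-fold, the second at 1.56 and at 1.42 when cells were ranked within 4 strata of the mitochondrial share. Of 73 nuclear genes of the respiratory chain, 6 were higher and none lower, or 8.22% against the 15.9% of all genes, and their median of 1.10 was that of all genes compared. Ndufb4 and Ndufb11, complex I subunits, led at 2.09 and 2.04. Of 11 mitochondrially encoded genes, mt-Co1 and mt-Nd2 were higher at 1.66 and 1.65 (18.2% of the list, near the 15.9% of all genes). They were at 1.30 and 1.33 when cells were ranked within 4 strata of the mitochondrial share.

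Immediate early genes are transcribed soon after a growth or stress signal, and were listed together with ERK feedback genes. Of 13 members of this joint list past the floor, 7 were higher in Gstm-high cells (53.8%, against 15.9% of all genes). None was lower (median ratio 1.55). With no floor the list's median was 0.917, below 1. Fosb, a partner of the AP-1 complex, had 124 CPM in Gstm-high and 15.9 CPM in Gstm-low cells, a ratio of 7.80 (5.89 to 10.5), and 35.2 CPM in macrophage-like cells. Fos had 752 CPM in Gstm-high and 326 CPM in Gstm-low cells, and Ier2 had 385 CPM in Gstm-high and 169 CPM in Gstm-low cells. Atf3, Dusp1, Jun and Egr1 were higher at ratios of 1.55 to 1.83, and Spry2 and Zfp36 were below 1 at 0.693 and 0.675, inside the 1.5-fold limit. Against Gstm-low cells Egr1 was at 1.40 and Atf3 at 1.34 with thinned cells, and Dusp1 was at 1.47 and Jun at 1.45 when the shares of single cells were averaged.

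Other metabolic and stress lists gave scattered members, where 15.9% of all genes compared were higher and 6.2% lower. Of the glycolysis and hypoxia genes past the floor, 13.3% were higher and 13.3% lower. Fasn and Scd2, of fatty acid synthesis, were the members of that list past the floor, at 91.1 and 137 CPM in Gstm-high cells, against 26.1 and 62.6 CPM in Gstm-low cells. Of 10 ATF4 and ER stress genes, Ddit3, Atf3 and Phgdh were higher, Ddit3 at 2.44 and Phgdh at 1.57 (1.47 without host-like cells), and the list's median was 0.958. Of 15 glycolysis and hypoxia genes, Hk2 and Aldoa were higher at 2.14 and 1.55 (Aldoa 1.46 without mitochondrially encoded and ribosomal protein genes in the total), and Ndrg1 and Ddit4 lower at 0.408 and 0.594. None of 3 p53 targets past the floor was past 1.5-fold. Sodium pump and FXYD genes were higher in 3 of 6 members, Atp1b2, Fxyd1 and Fxyd5, the last at 1.63 and at 1.44 when the shares of single cells were averaged. Atp1b2, a beta subunit of the pump, led with 232 CPM in Gstm-high and 24.9 CPM in Gstm-low cells, a ratio of 9.33 (7.48 to 11.8), while Atp1b1, another beta subunit, was at 0.892.

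Cytosolic ribosomal protein genes took a smaller part of the RNA of Gstm-high cells. They summed to 27.8% of UMIs in Gstm-high and 32.8% in Gstm-low cells. Of 80 past the floor, 76 had a ratio below 1, and their median was 0.833, against 1.10 over all genes compared. The share of all genes below 1 is not given. Only 6 (7.5%) were past 1.5-fold, all lower, where 6.2% of all genes compared were lower and 15.9% higher. The largest difference was Rpsa, at 958 CPM in Gstm-high and 1692 CPM in Gstm-low cells. Of 7 mitosis genes that the selection did not use, Stmn1, a microtubule destabiliser, was lower at 102 CPM in Gstm-high and 236 CPM in Gstm-low cells, and of 2 replication genes Rrm1 was higher at 70.3 CPM in Gstm-high and 32.6 CPM in Gstm-low cells.

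The lowest ratios were those of Slpi and Mt2. Slpi, a secreted inhibitor of leukocyte proteases, had 8.15 CPM in Gstm-high and 338 CPM in Gstm-low cells, a ratio of 0.0241 (0.0161 to 0.0348). Mt2, a metallothionein, which binds zinc and copper, had 7.03 CPM in Gstm-high and 184 CPM in Gstm-low cells, and its neighbour Mt1 had 250 CPM in Gstm-high and 997 CPM in Gstm-low cells. In macrophage-like cells Slpi was at 109 CPM and Mt2 at 367 CPM, both above the Gstm-high level. Their differences shrank when host-like cells were left out, to ratios of 0.0451 for Slpi and 0.0830 for Mt2, and that of Mt1 moved to 0.326. The 34 Gstm-low cells with most Slpi UMIs held 64.5% of its UMIs. Mt1 and Mt2 are close copies, as are the haemoglobin genes, so reads may be split between them.

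Fn1, which encodes fibronectin, had 13.8 CPM in Gstm-high and 108 CPM in Gstm-low cells, a ratio of 0.128. Col4a1 and Col4a2, the main chains of basement membrane collagen IV, which share a promoter region on opposite strands, had 14.9 and 17.1 CPM in Gstm-high cells, against 116 and 125 CPM in Gstm-low cells. These 3 stayed close to their value without the host-like cells, at 0.138, 0.149 and 0.152. Of 9 epithelial-mesenchymal genes past the floor 4 were lower (44.4%, against 6.2% of all genes), Timp2 the fourth at 0.620. None was higher, against 15.9% of all genes, while Vim, which encodes the mesenchymal filament vimentin, was at 1.42.

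Abcb1b, which encodes a P-glycoprotein drug pump, had 28.7 CPM in Gstm-high and 214 CPM in Gstm-low cells, a ratio of 0.134 (0.108 to 0.165). It was found after thinning in 2.79% of Gstm-high, 16.7% of Gstm-low and 2% of macrophage-like cells. Only Abcb1b of 10 listed efflux pump genes passed 50 CPM over all candidate cells. Below that floor the pumps differed in direction, with Abcc1 higher at 2.53 (1.87 to 3.47) and Abcb1a lower at 0.198 (0.0211 to 0.931). Lgals2, a galectin, had 213 CPM in Gstm-high and 765 CPM in Gstm-low cells, and C3, the central complement component, 87.1 CPM in Gstm-high and 272 CPM in Gstm-low cells. Abcb1b, Lgals2 and C3 mark another tumour-like group of the same library, and all 3 were smaller at each step towards the Gstm-high cells. A second tumour-like group of the library is marked by Defb19 and Defb36, both among the leading higher genes above, and how many cells it shares with the Gstm-high cells was not counted. Of the markers of another group, Wfdc18 was higher at 257 CPM in Gstm-high and 54.4 CPM in Gstm-low cells, while Gng13, a G protein subunit, was lower at 21.4 CPM in Gstm-high and 85.0 CPM in Gstm-low cells. Abhd2, Pam and Spry2, markers of a further group, were all within 1.5-fold. Ifitm3, an interferon-stimulated restriction factor, was lower at 65.8 CPM in Gstm-high and 221 CPM in Gstm-low cells, and Ifi27 higher at 263 CPM in Gstm-high and 116 CPM in Gstm-low cells. B2m, the light chain of MHC class I, was at 0.607, and at 0.717 without host-like cells, and Tapbp, a peptide-loading factor, at 1.73, and at 1.38 with thinned cells.

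**Figure D5:**
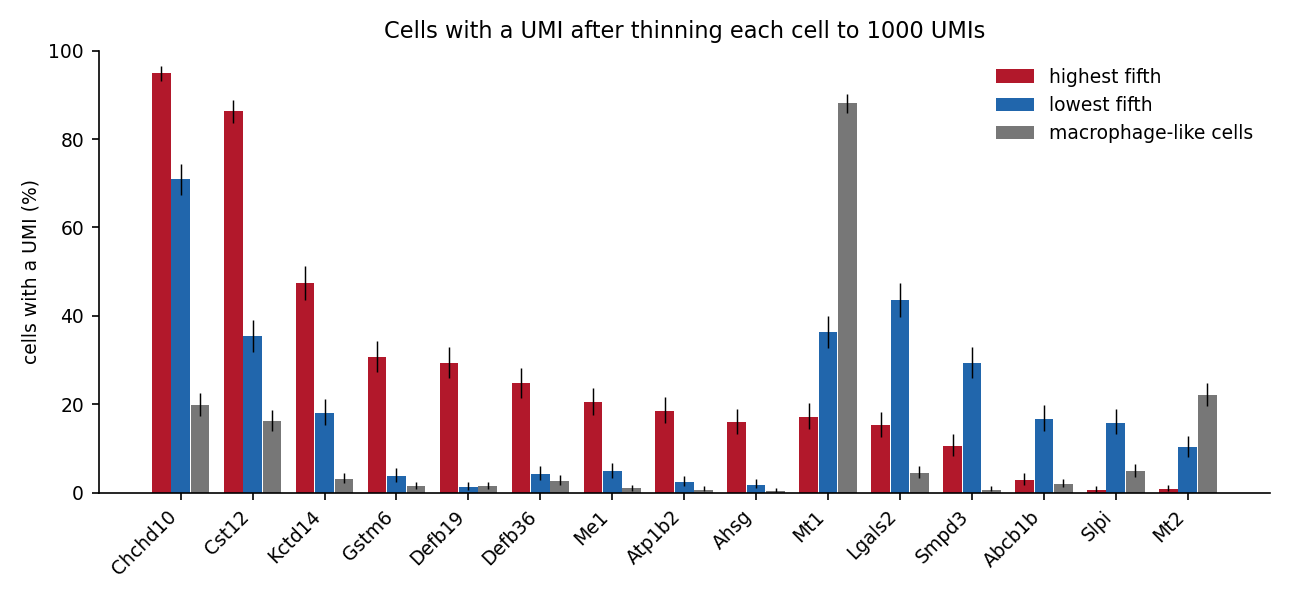
Percent of cells with at least 1 UMI of a gene (y axis) after each cell was thinned to 1000 UMIs, in Gstm-high cells (red, n = 680), Gstm-low cells (blue, n = 670) and macrophage-like cells (grey, n = 950), with exact 95% intervals. Chchd10 and Cst12 are found in most Gstm-high cells, at 95% and 86.5%, and Defb19 in 29.3%; Slpi is found in 0.588% of Gstm-high and 15.8% of Gstm-low cells.

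The haemoglobin genes were lower in Gstm-high cells, at a summed 687 CPM against 1450 CPM in Gstm-low cells, but this rested on a few barcodes. With cells of 20 or more haemoglobin UMIs left out, Hba-a1, Hba-a2 and Hbb-bt were at ratios of 1.10, 1.22 and 1.18 and Hbb-bs, the most abundant of the 4, at 0.873, and the sums were 340 CPM in Gstm-high and 346 CPM in Gstm-low cells, so no direction is given for them. Without host-like cells, but with those barcodes, the sums were 486 CPM in Gstm-high and 1547 CPM in Gstm-low cells.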

How the data were processed

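The values deposited by the authors for the ascites library are raw UMI counts, made with 10x Genomics chemistry per the labels. The matrix held 35733776 UMIs over 27998 genes and all 737280 possible barcodes, so cells had not been selected. Aligner, genome build and annotation were not given in the sources used here. The 8 columns of bulk counts could be tied to no sample by name and were left out.

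Cells were filtered, selected and ranked as the report states; ties were broken in a seeded random order. Scrublet (scanpy 1.11.5) marked 89 of 6442 barcodes (1.38%) as doublets, which were kept and left out as an alternative. UMIs were summed over the cells of each group and given as CPM, with exact Poisson 95% intervals; ratios have exact conditional binomial 95% intervals and shares of cells Clopper-Pearson 95% intervals. All of these cover counting error only, and there is no replicate library, so no p-value is given. Where no cell was found, the upper limit rests on 3 counts. A gene was counted as higher or lower at 1.5-fold among genes with at least 50 CPM over all candidate cells. Macrophage-like cells had at least 3 C1q UMIs and at most 1 UMI of the keratin, Wt1 and Upk3b genes. For shares of cells, each cell was thinned to 1000 UMIs, which left out 6 Gstm-high and 16 Gstm-low cells. Steps were checked on simulated counts with known changes in 200 genes. Python 3.11.15, numpy 2.4.6, scipy 1.17.1 and pandas 2.3.3 were used.

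The genes named were the 15 highest and 15 lowest ratios whose interval excludes 1, Chchd10, Kctd14 and members of 37 gene lists; a few genes are not reported here. The cells, lists, markers and rules were chosen with earlier results of these data known. Alternatives were thinning, ranking within 4 strata of depth or of the mitochondrial share, a stricter cell filter, removal of doublets, groups of 10% of the cells, the middle groups as the comparison, another total, mean shares, other CPM floors and ties kept. Leaving out host-like cells, or cells with 20 or more haemoglobin UMIs, was added after seeing the data.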

Additional observations from a re-analysis of the deposited data

Results flagged for a closer look

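The comparisons of the report left out dividing cells and barcodes rich in mitochondrial transcripts, and the same pattern was looked for there with the Gstm share limits of the report. Among 228 dividing cells (3 or more UMIs of the mitosis genes), 3 were Gstm-high (1.32%) and 81 Gstm-low (35.5%). Defb19 was 24.6-fold higher in the 3 Gstm-high than in the 81 Gstm-low dividing cells (95% interval 7.78 to 74.2), from 7 UMIs in Gstm-high and 9 in Gstm-low cells. Of the 15 leading higher genes 14 had a ratio above 1 there, and of the 15 leading lower genes 11 had one below 1. The 3 cells held only 19092 UMIs, and Slpi, Mt2, Col4a1, Nrgn, Uchl1 and Csrp1 were below 1 with no UMI in them. Of the lower genes, only Uchl1 and Lgals2 had an interval below 1. Of the higher genes above 1, Gm26532, Ahsg, Atp1b2 and Ins2 had intervals that included 1. Gm37350 had no UMI in the 3 cells, and Mt1 (1.06), Gng13, Tnni1 and Tcea3 were above 1. Among 245 barcodes with over 15% mitochondrial UMIs, 10 were Gstm-high (4.08%) and 60 Gstm-low (24.5%). Defb19 was 11.2-fold higher in those 10 than in those 60 (5.53 to 23.9), from 25 UMIs in Gstm-high and 13 in Gstm-low barcodes. In these barcodes 14 of the 15 leading higher genes were above 1, all but Ins2 at 0.833. Of the 15 leading lower genes 13 were below 1, while Tnni1 was at 4.38 and Nrgn had no UMI. Slpi, Abcb1b, Col4a2, Uchl1, Csrp1, Gng13 and Tcea3 were below 1 with no UMI in the 10 barcodes. Of the lower genes, only Mt1 and Smpd3 had an interval below 1. Of the higher genes above 1, Fosb, Efhd1 and Gsta4 had intervals that included 1. The share of all genes above or below 1 in these sets is not given, so the tallies have no background to be read against. These sets come from the same library, the cells are few, and the ratios are not a test.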

How the results depend on the processing

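The counts of 313 higher and 122 lower genes stayed within 1.5 times under thinning, 4 strata of depth or of the mitochondrial share, the stricter filter, doublets left out, groups of 10% of the cells, the other total, mean shares, ties kept, and host-like or haemoglobin-rich cells left out. The genes themselves changed more than the counts. Of the 313 and 122, 259 and 103 were also called under thinning, and 254 and 102 within strata of the mitochondrial share. Within strata of depth 300 and 117 were also called, and with the other total 237 and 122. Against the middle 3 groups the counts were 73 higher and 52 lower. A floor of 20 CPM gave 727 and 263, a floor of 100 CPM 162 and 73, and no floor 3782 and 3230, with more or fewer genes compared by construction. None of the 30 leading genes changed direction over 12 settings, and Tnni1 was inside 1.5-fold in 1 of them, at 0.693 against the middle 3 groups. Defb19 ran between 3.83 against the middle 3 groups and 54.6 with groups of 10%. Without haemoglobin-rich cells Hba-a1 reversed to 1.10, Hba-a2 to 1.22 and Hbb-bt to 1.18. Of the list medians past 1.5-fold, 4 lay on the other side of 1 in a setting. With no floor these were the immediate early and ERK feedback genes (0.917) and the replication genes (0.888). The Wfdc18, Gng13 and Sncg list did so (0.929) against the middle 3 groups, and the efflux pumps (1.21) with a floor of 20 CPM. A further 14 lists with medians inside 1.5-fold also did in at least 1 setting, and the cause was not tested. No paired analysis was possible because the cells come from 1 library and the bulk columns carry no sample label. With 1 library, differences between mice or cultures cannot be told apart from those described, and genes under 50 CPM are limited by depth.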

Other observations

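Genes outside the lists, chosen after their values were seen, also stood apart in Gstm-high cells. Edn1, which encodes the vasoconstrictor endothelin-1, had 332 CPM in Gstm-high and 91.2 CPM in Gstm-low cells. Mgarp, a mitochondrial protein, had 125 CPM in Gstm-high and 28.6 CPM in Gstm-low cells. Igf1, the insulin-like growth factor, had 99.0 CPM in Gstm-high and 32.3 CPM in Gstm-low cells. Scx, a transcription factor of tendon cells that is also expressed by Sertoli cells of the testis, had 173 CPM in Gstm-high and 58.3 CPM in Gstm-low cells. On the lower side, Dmkn, which encodes dermokine, a secreted protein of epithelia, had 754 CPM in Gstm-high and 1908 CPM in Gstm-low cells, and its single-cell median was 5.40 UMIs per 10000 in Gstm-high and 14.2 in Gstm-low cells. Aebp1, a matrix protein gene, had 85.7 CPM in Gstm-high and 233 CPM in Gstm-low cells.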
